A study of Mus musculus with 18 samples.

Results

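The 3 SoxE transcription factor genes, Sox8, Sox9 and Sox10, were measured by RNA sequencing in cultured mouse oligodendrocyte progenitor cells (OPCs), which divide and can go on to form myelin. They were taken by gene symbol as 3 of the 54279 rows of each deposited table. All 3 passed the filter on low values, an average of 1 or more CPM (counts scaled to library size) across a table's libraries, as did 13569 rows of the untreated table and 13460 rows of the drug table in all. All cells were derived from epiblast stem cells and grown with Fgf2 and Pdgfa. The groups were CRISPR-Vhl cells with 300 nM AZD8330 for 14 hours, CRISPR-Vhl cells with DMSO, CRISPR-Control cells with the same AZD8330 dose and time, CRISPR-Control cells with DMSO, untreated CRISPR-Vhl cells and untreated CRISPR-Control cells. AZD8330 inhibits the kinases MEK1 and MEK2, and VHL protein targets the alpha subunits of hypoxia-inducible factors (HIF) for destruction. Each group had 3 libraries lettered A to C, 18 in all. The sources used here do not give the mouse strain, the guides, the kind of edit or whether the edited cells were 1 clone. They also do not say whether libraries A, B and C were grown as separate cultures, so each p-value reflects only how much these libraries vary, which may be technical variation.

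SoxE proteins bind DNA through a high-mobility-group domain, and the 3 act partly in each other's place. In the oligodendrocyte lineage Sox9 is known for the step from neural stem cell to glial precursor, Sox10 for survival of OPCs and for turning on myelin genes, and Sox8 for a supporting role beside both. Sox9 is kept on in astrocytes and lost as oligodendrocytes mature, while Sox10 stays on. Outside the brain, Sox10 and Sox9 act in the neural crest, and Sox9 directs cartilage and testis development.

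Totals of estimated counts lay between 14594148 and 21160250 in the untreated table and between 12391077 and 16349676 in the drug table. At this depth Sox8 and Sox9 had at least 3246 counts in every library, and Sox10 had at least 205. OPC markers (10 genes, Olig2 and Pdgfra among them) summed to between 8133 and 14486 CPM over all libraries, and all 10 passed the filter in both tables. Of 6 pluripotency markers, Pou5f1 and Zfp42 had 0 counts in both tables. Esrrb had 14.2 to 22.1 CPM in the DMSO libraries, and Nanog, Fgf5 and Dppa5a had at most 2.8 CPM in any library. The edited gene Vhl was still transcribed: in the drug table it had 103, 104 and 91.8 CPM in Vhl cells with AZD8330 against 139, 136 and 138 CPM in control cells with AZD8330, and 89.8, 92.9 and 93.8 CPM in Vhl cells with DMSO against 109, 107 and 102 CPM in control cells with DMSO. Untreated, it had 87.1, 89.9 and 73.9 CPM in Vhl cells against 117, 121 and 125 CPM in control cells. Bnip3, a direct HIF target, separated the genotypes in every library, with 906 to 965 CPM in Vhl cells with AZD8330 against 36.6 to 37.7 CPM in control cells with AZD8330. The lowest Vhl library for Bnip3 was untreated Vhl A (159.7 CPM, against 512 and 516 CPM in Vhl B and C).

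The 3 genes lie on different chromosomes in GRCm38 (mm10; GENCODE M21, 1-based). Sox8 spans chromosome 17, 25565892 to 25570686, on the minus strand, with 3118 exon bases over 3 annotated transcripts. Sox9 spans chromosome 11, 112782224 to 112787760, on the plus strand, with a single transcript of 4135 bases. Sox10 spans chromosome 15, 79154908 to 79165240, on the minus strand, with 3051 exon bases over 4 transcripts. Of the 31-base words in their annotated transcripts, 9.73% of Sox8, 1.34% of Sox9 and 0.82% of Sox10 also occur in transcripts of other genes (for Sox10, with Sox9 alone). The exons of Sox8 overlap 329 exon bases of 2810468N07Rik, an antisense gene with 14.7 to 31.1 CPM in the drug libraries. The sources used here do not say whether the libraries kept strand, so in that stretch the reads of the pair cannot be told apart.

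The RefSeq promoter table (GRCm38.p6) holds Sox8. The 250 bases before its start site, chr17:25570687-25570936 on the minus strand, 65.6% G or C, are shown because they were searched for the core of the HIF response element, ACGTG or GCGTG.
Sox8 promoter: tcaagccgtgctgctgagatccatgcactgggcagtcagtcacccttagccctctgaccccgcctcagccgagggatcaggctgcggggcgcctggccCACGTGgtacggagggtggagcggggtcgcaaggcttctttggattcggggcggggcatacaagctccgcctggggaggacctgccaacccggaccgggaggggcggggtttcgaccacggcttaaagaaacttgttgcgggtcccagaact
The capitals mark ACGTG, found once on each strand, and these 2 matches overlap in a palindrome. GCGTG was not found. The first base of the match on the gene's strand lies at position -151, counted back from the start site. Searched on both strands over 300 bases, 250 before and 50 after the start, ACGTG occurs in 19.6% and GCGTG in 32.4% of 32851 promoters, and at least 1 of them in 43.8%. The motifs ACAAAG and AACAAT, which SOX proteins bind, were not found in the Sox8 window. At least 1 of that pair occurs in 27.0% of the promoters.

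The untreated A libraries stood apart from B and C in both genotypes, above all for Sox10, and this touches every result of the untreated table. Sox10 had 326 CPM in Vhl A against 15.3 and 16 CPM in Vhl B and C. In control cells it had 526 CPM in A against 87.8 and 87.5 CPM in B and C. Both A libraries were therefore above every B and C library, whatever the genotype. The drug libraries showed no such split, with Sox10 at 27.2 to 34.7 CPM in Vhl cells with AZD8330, 15.5 to 20.2 in Vhl cells with DMSO, 95 to 99.9 in control cells with AZD8330 and 47.8 to 55.3 in control cells with DMSO.

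**Figure D1:**
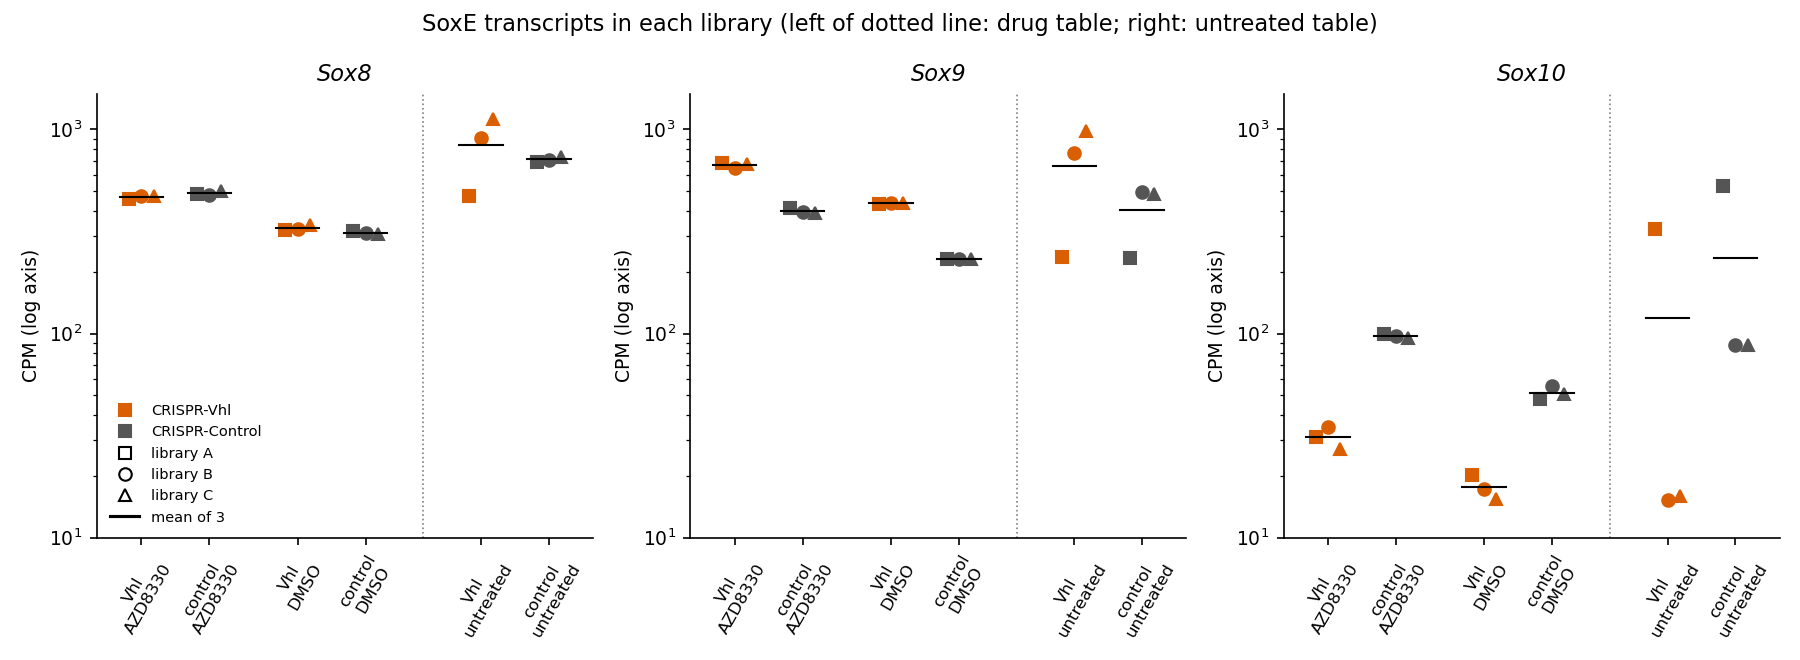
CPM of Sox8, Sox9 and Sox10 in each of the 18 libraries on a log axis, with CRISPR-Vhl in orange, CRISPR-Control in grey, a marker shape per library letter and a bar at the mean of 3. The drug groups are tight, while the untreated A libraries sit far from B and C, for Sox10 at 326 CPM in Vhl A and 526 CPM in control A.

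With DMSO, Vhl cells had more Sox9 and less Sox10 than control cells, while Sox8 was close to level. Sox9 had 430.2, 436 and 437 CPM in Vhl cells against 231, 233 and 232 CPM in control cells. Sox10 had 20.2, 17.4 and 15.5 CPM in Vhl cells against 47.8, 55.3 and 50.5 CPM in control cells. Every Vhl library was above every control library for Sox9 and below every control library for Sox10. The share of all tested genes whose groups separated in this way is not given. Non-overlap is therefore only a description, here and in the comparisons below. The Sox9 rise was 1.87-fold (log2 0.91 ± 0.03 SE, adjusted p = 5.31e-10 with edgeR's quasi-likelihood test, n = 3 each). Sox10 fell by 1.53 on the log2 scale (± 0.10 SE, edgeR adjusted p = 2.41e-07), to 0.345 of the control level. Sox8 had 321, 326 and 339 CPM in Vhl cells against 317, 312 and 307 CPM in control cells, log2 0.07 ± 0.03 (edgeR adjusted p = 0.0944). Its groups did not overlap, but the 95% interval of the change ran only from 0.01 to 0.14 on the log2 scale. So 2 of the 3 genes passed, where 32.3% of all tested genes did (13.8% rose and 18.5% fell, or 1851 and 2492 genes; scaled by total counts alone, 2343 rose and 1794 fell). The median log2 change over all tested genes was -0.03. In bulk libraries, fewer cells with Sox10 and less Sox10 RNA per cell cannot be told apart.

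With AZD8330, Sox9 was again higher and Sox10 again lower in Vhl cells than in control cells. Sox9 had 688, 650.1 and 678 CPM in Vhl cells against 414, 394 and 391 CPM in control cells (log2 0.75 ± 0.03 SE, edgeR adjusted p = 1.67e-09). Sox10 had 31, 34.7 and 27.2 CPM in Vhl cells against 99.9, 96.9 and 95 CPM in control cells (log2 -1.65 ± 0.10 SE, edgeR adjusted p = 4.47e-08). The groups did not overlap for either gene. Sox8 had 455, 472 and 473 CPM in Vhl cells against 483, 478 and 500.2 CPM in control cells, a log2 change of -0.06 ± 0.03 with a 95% interval from -0.13 to 0.01 (edgeR adjusted p = 0.163). Here 30.0% of all tested genes passed (16.0% rose and 14.0% fell), and again 2 of the 3 SoxE genes. The sign of the small Sox8 difference was opposite to that with DMSO. With other scalings or filters it passed the threshold in either state, as set out with the processing alternatives.

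AZD8330 raised all 3 SoxE genes in both genotypes. The levels are those listed above. Sox8 rose 1.42-fold in Vhl cells (log2 0.51 ± 0.03, edgeR adjusted p = 2.42e-08) and 1.56-fold in control cells (log2 0.64 ± 0.03, edgeR adjusted p = 1.47e-09). Sox9 rose 1.55-fold in Vhl cells (log2 0.63 ± 0.03, edgeR adjusted p = 2.22e-09) and 1.72-fold in control cells (log2 0.78 ± 0.03, edgeR adjusted p = 2.15e-10). Sox10 rose 1.76-fold in Vhl cells (log2 0.81 ± 0.11, edgeR adjusted p = 2.88e-05) and 1.9-fold in control cells (log2 0.93 ± 0.09, edgeR adjusted p = 1.58e-06). Every AZD8330 library was above every DMSO library of the same genotype for each gene. So 3 of 3 rose in each genotype, where 51.4% of tested genes passed in Vhl cells (25.8% rose and 25.6% fell) and 60.8% in control cells (29.1% rose and 31.7% fell). The antisense gene 2810468N07Rik rose too (log2 0.77 in Vhl cells and 0.70 in control cells), and its part in the Sox8 values was not tested. The comparisons share DMSO and AZD8330 libraries with those between genotypes, so their values stand side by side and are not independent of each other.

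The rise with AZD8330 was slightly smaller in Vhl cells for Sox9. The difference of the drug effects, Vhl minus control, was log2 -0.16 ± 0.04 for Sox9 (edgeR adjusted p = 0.0349), with a 95% interval from -0.25 to -0.06. So 1 of the 3 genes passed, where 12.8% of tested genes did (7.81% positive and 4.96% negative, or 1051 and 667 genes; scaled by total counts alone, 683 and 870). The Sox9 call was lost, with adjusted p up to 0.0811, when 1 of 7 libraries was left out (Vhl AZD8330 B, Vhl DMSO B or C, control AZD8330 A, or control DMSO A, B or C). For Sox8 the difference was -0.14 ± 0.04 (edgeR adjusted p = 0.0658) and for Sox10 -0.12 ± 0.14 (edgeR adjusted p = 0.669, 95% interval from -0.42 to 0.19).

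Vhl cells with AZD8330 were also set against control cells with DMSO. Sox10 was lower, at 31, 34.7 and 27.2 CPM in Vhl cells with AZD8330 against 47.8, 55.3 and 50.5 CPM in control cells with DMSO (log2 -0.72 ± 0.10, edgeR adjusted p = 2.54e-05). Sox9 was 2.9-fold higher (log2 1.53 ± 0.03, edgeR adjusted p = 4.85e-13) and Sox8 1.49-fold higher (log2 0.58 ± 0.03, edgeR adjusted p = 3.52e-09). All 3 passed, where 62.6% of tested genes did (31.7% rose and 30.9% fell).

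**Figure D2:**
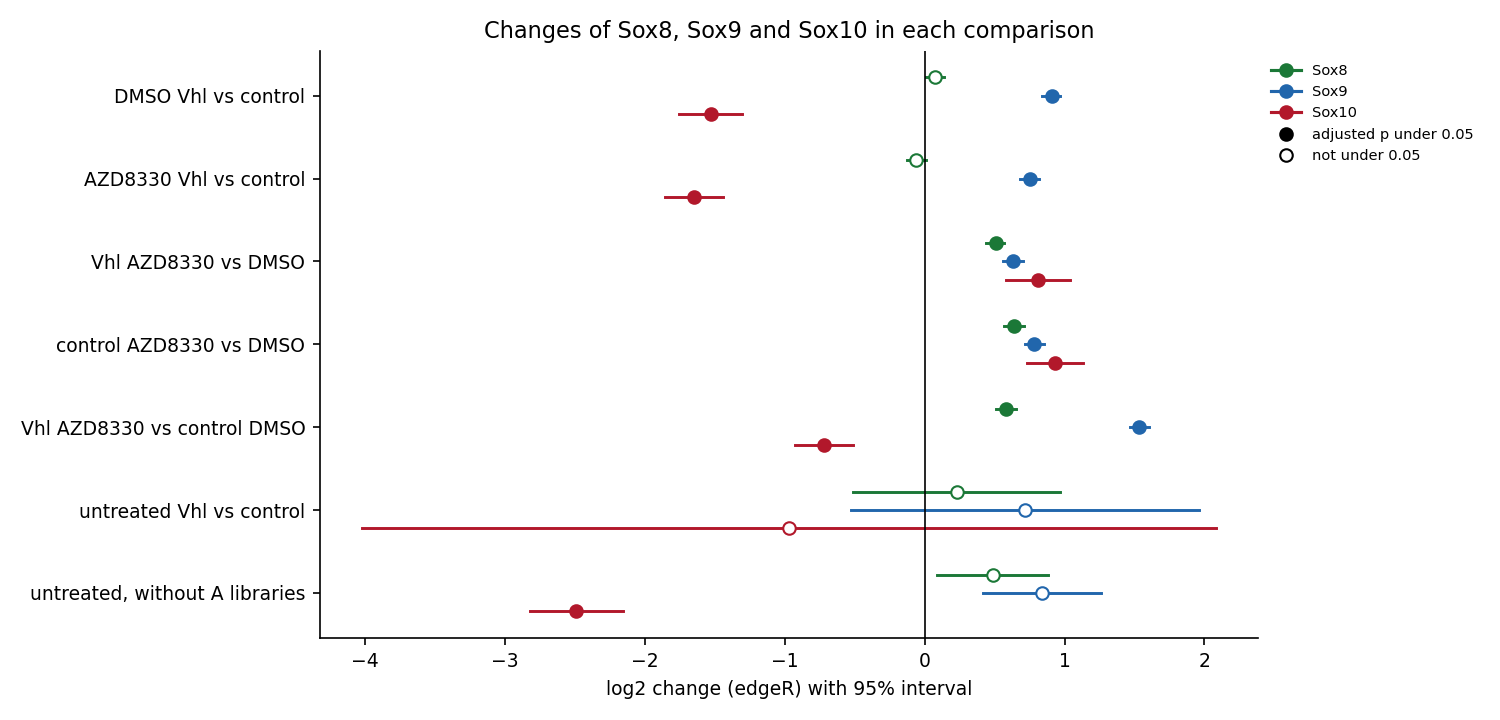
Log2 changes of Sox8 (green), Sox9 (blue) and Sox10 (red) from edgeR with their 95% intervals, 1 row per comparison, filled where the adjusted p was under 0.05. Sox9 and Sox10 lie on opposite sides of 0 between genotypes (0.91 and -1.53 with DMSO), and on the same side for AZD8330 against DMSO. In the row without the untreated A libraries, Sox10 is a description, since those libraries were singled out by their Sox10.

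The order of the 4 drug groups differed between the genes. Sox10 had means of 31 ± 3.75 CPM in Vhl cells with AZD8330, 17.7 ± 2.39 in Vhl cells with DMSO, 97.3 ± 2.47 in control cells with AZD8330 and 51.2 ± 3.8 in control cells with DMSO (SD, n = 3 each). Both Vhl groups thus lay below both control groups, and each neighbouring pair in the order of levels was separated and passed its test. Sox9 had 672 ± 19.4 CPM in Vhl cells with AZD8330, 434 ± 3.71 in Vhl cells with DMSO, 399.6 ± 12.6 in control cells with AZD8330 and 232 ± 0.94 in control cells with DMSO, which is also its order from high to low. The middle pair, 430.2 to 437 CPM in Vhl cells with DMSO and 391 to 414 CPM in control cells with AZD8330, did not overlap and was not tested. For Sox8 the drug states lay further apart than the genotypes. Vhl cells with AZD8330 (467 ± 10.3 CPM) did not pass against control cells with AZD8330 (487 ± 11.6), nor Vhl cells with DMSO (329 ± 9.3) against control cells with DMSO (312 ± 4.7), though the libraries did not overlap in either state and each difference was called under some alternatives.

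Because the transcripts differ in length, levels of the 3 genes were compared with each other per kilobase of exon. In Vhl cells with DMSO, Sox8 and Sox9 were level at 105 ± 2.98 and 105 ± 0.896 CPM per kb, and Sox10 had 5.8 ± 0.785. In control cells with DMSO, Sox8 led with 100.1 ± 1.51 CPM per kb, ahead of Sox9 with 56.1 ± 0.227 and Sox10 with 16.8 ± 1.25. With AZD8330, Vhl cells had 149.7 ± 3.3 for Sox8, 162 ± 4.7 for Sox9 and 10.2 ± 1.23 for Sox10, against 156 ± 3.72, 96.6 ± 3.04 and 31.9 ± 0.811 CPM per kb in control cells (SD, n = 3 each). In the drug groups Sox9 thus matched or passed Sox8 in Vhl cells and stayed below it in control cells, and Sox10 was the lowest. Untreated, Sox9 was below Sox8 in every library of both genotypes: in the order A, B, C, Sox8 made up 48.1%, 60.3% and 59.8% of the summed level and Sox9 18.1%, 38.6% and 39.4% in Vhl cells, against 49.1%, 60.7% and 61.8% for Sox8 and 12.6%, 31.7% and 30.7% for Sox9 in control cells.

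The mix of the 3 transcripts differed with the genotype more than with the drug. Sox10 made up 2.68% ± 0.399 of the summed length-scaled level in Vhl cells with DMSO against 9.7% ± 0.669 in control cells with DMSO. With AZD8330 its share was 3.15% ± 0.404 in Vhl cells against 11.2% ± 0.269 in control cells. Sox9 made up 48.6% in Vhl cells against 32.4% in control cells with DMSO, and 50.4% against 33.9% with AZD8330. The summed level of the 3 was 216 ± 2.97 CPM per kb in Vhl cells with DMSO against 173 ± 1.72 in control cells with DMSO, and 322 ± 2.23 in Vhl cells with AZD8330 against 285 ± 3.88 in control cells with AZD8330. In the drug groups the lower Sox10 in Vhl cells thus went with a higher sum. Untreated, the sum was 316, 482 and 605 CPM per kb in Vhl A, B and C against 451, 376 and 382 CPM per kb in control A, B and C, so Vhl A had less Sox10 than control A and also the lowest sum.

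The ratio of Sox9 to Sox10 within a library needs no library scaling. It was 21.3, 25.1 and 28.3 in Vhl cells with DMSO against 4.84, 4.21 and 4.59 in control cells with DMSO. With AZD8330 it was 22.2, 18.7 and 24.9 in Vhl cells against 4.14, 4.07 and 4.11 in control cells. On the log2 scale Vhl minus control was 2.44 with DMSO and 2.41 with AZD8330 (exact two-sided permutation p = 0.1 for each, n = 3 each, the smallest p that 3 against 3 allows). AZD8330 minus DMSO was far smaller, -0.18 in Vhl cells (exact permutation p = 0.4) and -0.14 in control cells (exact permutation p = 0.1).

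**Figure D3:**
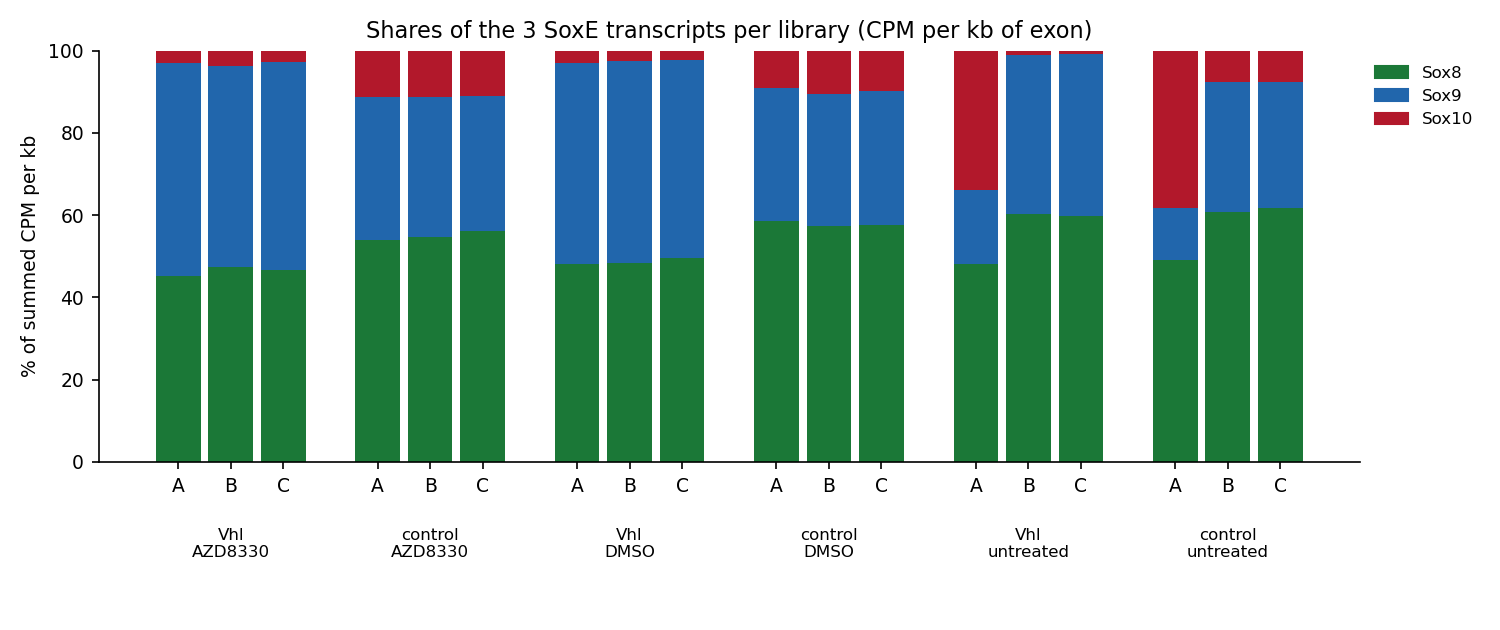
Share of Sox8 (green), Sox9 (blue) and Sox10 (red) in their summed CPM per kb of exon, 1 bar per library, grouped by condition. Sox10 takes 2.31% to 3.56% in the Vhl drug libraries and 9.04% to 11.4% in the control drug libraries, and 33.8% and 38.2% in the untreated A libraries.

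Untreated, 0 of the 3 genes passed between genotypes with all 6 libraries, where 0.0147% of tested genes did (2 genes, both rising; 1267 had an unadjusted p under 0.05, and DESeq2 called 355). In the order A, B, C, Sox9 had 237, 769.7 and 984 CPM in Vhl cells against 235, 492 and 485 CPM in control cells (log2 0.72 ± 0.53, edgeR adjusted p = 0.746). Sox8 had 474, 906 and 1127 CPM in Vhl cells against 690.4, 711 and 736 CPM in control cells (log2 0.23 ± 0.32, edgeR adjusted p = 0.89). For Sox10 the change was log2 -0.97 ± 1.29 (edgeR adjusted p = 0.886), with a 95% interval from -4.02 to 2.08 that excludes neither a large fall nor a large rise. The groups overlapped for each gene, and the A libraries were the lowest of their group for Sox8 and Sox9 and the highest for Sox10.

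The A libraries were singled out by their Sox10 values, so the Sox10 change without them is a description: log2 -2.49 between Vhl B and C and control B and C. Sox9 then stood at log2 0.84 with a 95% interval from 0.42 to 1.26 (edgeR adjusted p = 0.0646), and Sox8 at 0.49 with an interval from 0.09 to 0.88 (edgeR adjusted p = 0.137). The A libraries were also the lowest of their group for both genes, so these values from the fit without them are descriptions too. In that fit 4.47% of 13561 tested genes passed (2.91% rose and 1.56% fell). Dropping only control A turned the Sox10 value to log2 0.44, and dropping only Vhl A gave -3.90, and neither passed. Within libraries, the ratio of Sox9 to Sox10 was 0.726 in Vhl A, 50.4 in Vhl B and 61.6 in Vhl C against 0.448 in control A, 5.61 in control B and 5.54 in control C. Both A libraries had more Sox10 than Sox9, and the other libraries less.

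The A libraries also differed in oligodendrocyte-lineage genes, in both directions, so these values stand beside Sox10. Erbb3, a neuregulin receptor gene known as a SoxE target, had 24.3 CPM in Vhl A against 1.9 and 4.31 CPM in Vhl B and C, and 54.6 CPM in control A against 17.4 and 17.9 CPM in control B and C. Myrf, the myelin gene regulator that Sox10 turns on, had, in the order A, B, C, 3.05, 1.77 and 5.14 CPM in Vhl cells and 30.1, 1.76 and 3.19 CPM in control cells. Control A was the highest control library for both, and Vhl A the highest Vhl library for Erbb3 but not for Myrf. Nkx6-2, also known to depend on SoxE factors, went the other way, with 7.17, 13.5 and 10.1 CPM in Vhl cells. In control cells Nkx6-2 had 4.58, 12.7 and 12.8 CPM. Notch1 was also lowest in both A libraries. The 16 such genes of the lineage summed to 1576, 2246 and 2479 CPM in Vhl cells against 3063, 2063 and 2047 CPM in control cells. The 8 oligodendrocyte markers summed to 46, 17.2 and 15.5 CPM in Vhl cells against 171, 28 and 54.1 CPM in control cells. Mog, a late myelin gene, had 0 counts in all 6 libraries. Whether the state or mix of the cells in the A libraries had a part in the Sox10 values was not tested.

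**Figure D4:**
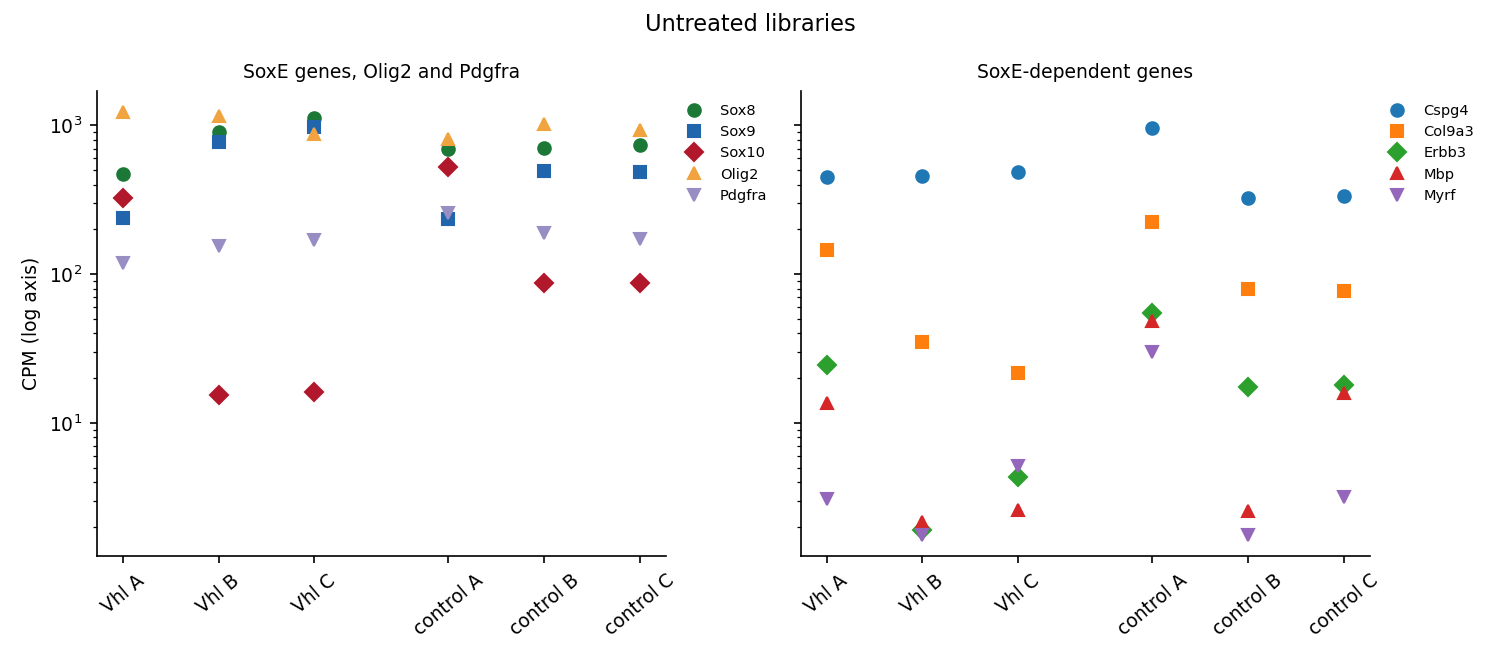
CPM on a log axis in the 6 untreated libraries, Vhl left and control right, for the SoxE genes with Olig2 and Pdgfra (left panel). The right panel holds a selection of genes known to depend on SoxE factors: Cspg4, Col9a3, Erbb3, Mbp and Myrf. Nkx6-2 and Notch1, lowest of their group in both A libraries, are not drawn. In the A libraries Sox10 sits above Sox9, and Erbb3 (24.3 CPM in Vhl A, 54.6 CPM in control A) is at its highest.

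Genes that are known to depend on SoxE factors in OPCs and oligodendrocytes moved in both directions between genotypes and mostly rose with the drug. Of 16 such genes, 12 were tested in the drug table; Gjb1, Mag, Mog and Ugt8a were too low. With DMSO, 5 rose and 2 fell in Vhl cells, where 13.8% of all tested genes rose and 18.5% fell. The median log2 change was -0.08, against -0.03 over all tested genes. Erbb3 was among those that fell, with 2.95, 2.38 and 2.04 CPM in Vhl cells against 6.54, 9.16 and 11.3 CPM in control cells (log2 -1.87 ± 0.21, edgeR adjusted p = 2.55e-05), and its groups did not overlap. The 5 that rose were Pdgfra, the PDGF receptor gene that keeps OPCs dividing, Cspg4, Dusp15, Nkx6-2 and Cnp. Pdgfra had 63.9 ± 1.41 CPM in Vhl cells against 35.1 ± 7.6 CPM in control cells with DMSO (log2 0.87 ± 0.13, edgeR adjusted p = 0.000169). Untreated, Pdgfra lay on the other side, with 119, 155 and 169.5 CPM in Vhl cells against 258, 188 and 173 CPM in control cells, groups that did not overlap (log2 -0.48 ± 0.23, edgeR adjusted p = 0.575). Nkx6-2, a homeobox gene of the lineage, had 6.76 ± 1.42 CPM in Vhl cells against 2.99 ± 0.639 CPM in control cells (log2 1.17 ± 0.19, edgeR adjusted p = 0.000395).

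With AZD8330, 3 of the 12 rose in Vhl cells and 4 fell (16.0% and 14.0% of all tested genes), with a median log2 change of -0.13. Erbb3 had 4, 3.66 and 3.86 CPM in Vhl cells against 15.8, 15.5 and 17.8 CPM in control cells (log2 -2.09 ± 0.20, edgeR adjusted p = 5.50e-06). Cnp, a myelin enzyme gene, was on the other side of 0 than with DMSO, at log2 -0.12 with AZD8330 and 0.31 with DMSO, and passed in both. Myrf (log2 -1.41, edgeR adjusted p = 0.0753) and Mbp, the myelin basic protein gene (log2 -0.90, edgeR adjusted p = 0.0947), did not pass.

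AZD8330 against DMSO raised 8 of the 12 in Vhl cells with none falling, and raised 10 with 1 falling in control cells. Over all tested genes, 25.8% rose and 25.6% fell in Vhl cells, and 29.1% rose and 31.7% fell in control cells. The median log2 changes were 0.97 in Vhl cells and 1.17 in control cells, against 0.03 and -0.01 over all tested genes. Nkx6-2 rose by log2 2.61 ± 0.16 in Vhl cells and 2.98 ± 0.18 in control cells. Erbb3 rose by log2 0.65 ± 0.22 in Vhl cells (edgeR adjusted p = 0.0256) and 0.86 ± 0.19 in control cells (edgeR adjusted p = 0.00167). Notch1, a receptor gene of the lineage, rose by log2 0.78 in Vhl cells (edgeR adjusted p = 1.26e-08) and 1.02 in control cells (edgeR adjusted p = 6.50e-10). Cspg4, the NG2 proteoglycan gene of OPCs, was the 1 that fell in control cells (log2 -0.14). The oligodendrocyte markers summed to 36.2 to 41.4 CPM in Vhl cells with AZD8330 against 13.1 to 20.5 CPM in Vhl cells with DMSO, and 66.6 to 71.9 CPM in control cells with AZD8330 against 18.1 to 19.1 CPM in control cells with DMSO.

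Untreated, 0 of 13 tested genes of this list passed with all libraries. Without the A libraries, a choice made after seeing the data, Erbb3 stood at log2 -2.50 ± 0.44 (edgeR adjusted p = 0.056). This value is a description, and 4.47% of all tested genes passed in that fit.

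**Figure D5:**
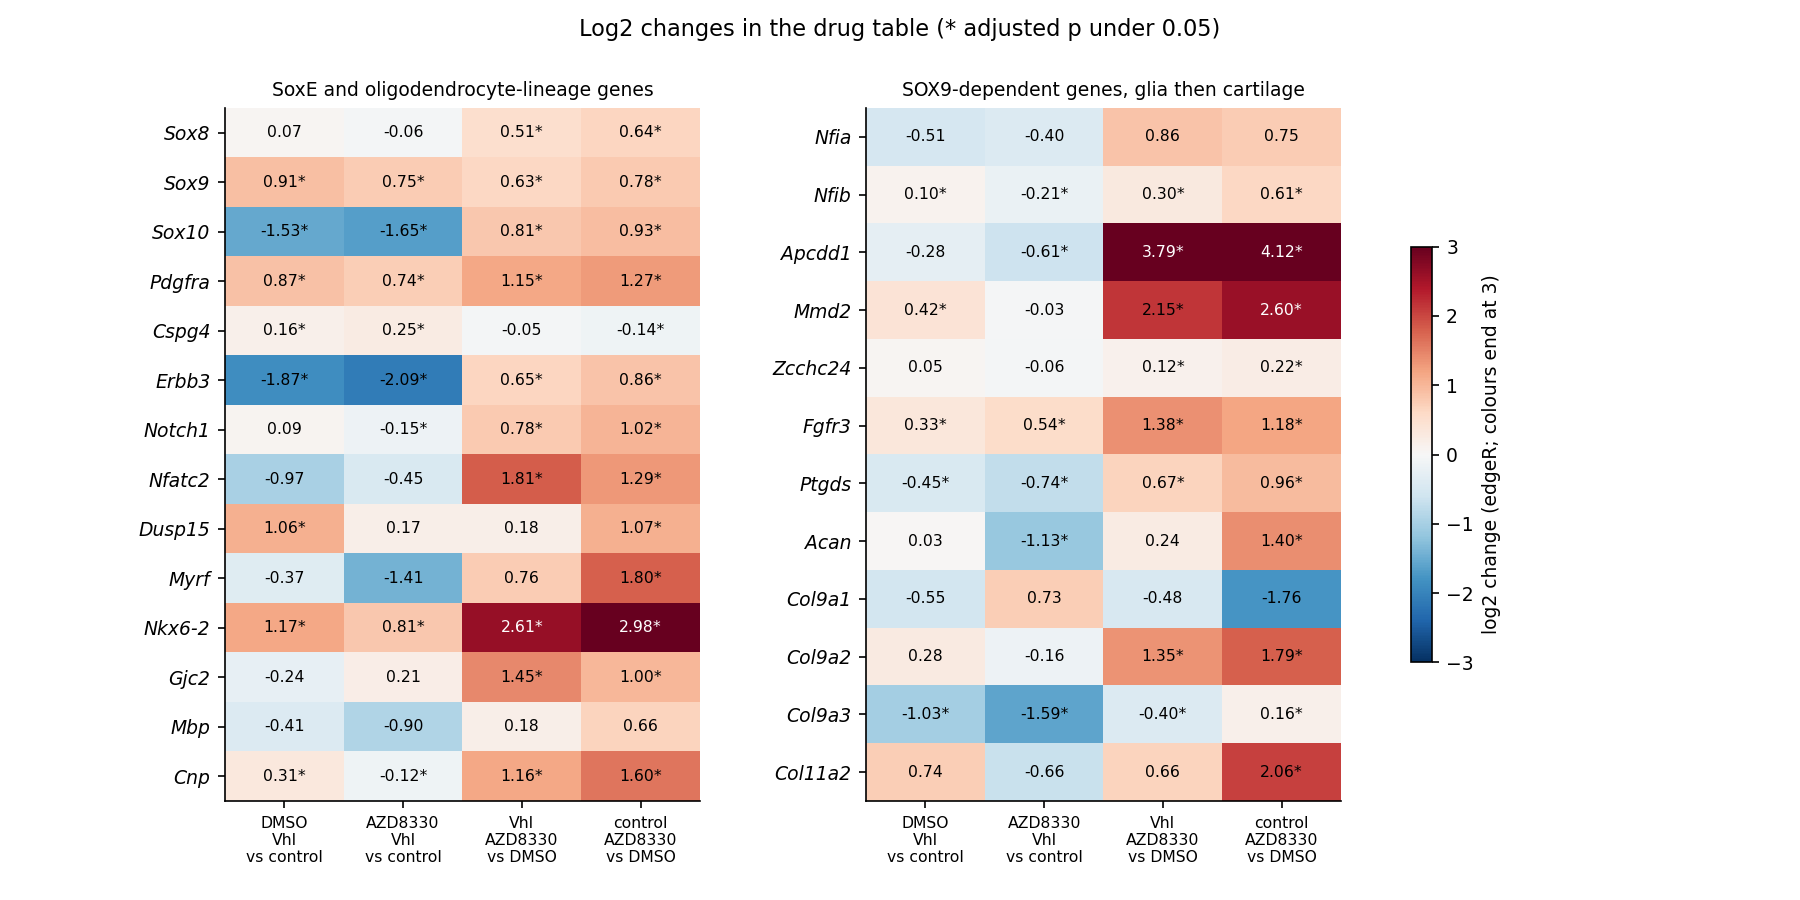
Log2 changes from edgeR in the drug table for the SoxE genes and 11 of the tested genes that depend on them in the oligodendrocyte lineage (left), and for tested SOX9-dependent genes of glia and cartilage (right), with an asterisk where the adjusted p was under 0.05. Erbb3 is the oligodendrocyte-lineage gene with the largest fall beside Sox10 in both genotype columns (-1.87 with DMSO and -2.09 with AZD8330).

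Genes known to depend on SOX9 in glial precursors and astrocytes did not rise as a body with Sox9 between genotypes. All 7 were tested. With DMSO, 3 rose in Vhl cells (Nfib, Mmd2 and Fgfr3) and Ptgds fell, where 32.3% of all tested genes passed. The number that rose was 2 with RLE scaling and 4 with total counts. Mmd2, induced with gliogenesis, had 65.7 ± 5.56 CPM in Vhl cells against 49 ± 2.75 CPM in control cells (log2 0.42 ± 0.06, edgeR adjusted p = 0.00016), and Nfib, a glial transcription factor gene, passed by a small margin that RLE scaling removed (log2 0.10, edgeR adjusted p = 0.0344, and 0.0764 with RLE). With AZD8330, only Fgfr3 rose in Vhl cells (418 ± 29.5 CPM against 288 ± 10.4 CPM in control cells, log2 0.54 ± 0.07, edgeR adjusted p = 9.13e-05), and Nfib, Apcdd1 and Ptgds fell. The list medians were log2 0.05 with DMSO and -0.21 with AZD8330. Untreated, 0 of 7 passed with all libraries. Without the A libraries, a choice made after seeing the data, Apcdd1 (log2 -2.16, edgeR adjusted p = 0.00667) and Mmd2 (log2 -0.94, edgeR adjusted p = 0.0448) were lower in Vhl cells. These values are descriptions, and 4.47% of all tested genes passed in that fit.

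AZD8330 against DMSO raised 6 of the 7 in each genotype, all but Nfia, where 25.8% of all tested genes rose in Vhl cells and 29.1% in control cells. Apcdd1, a WNT inhibitor gene, had 292 ± 11.2 CPM in Vhl cells with AZD8330 against 21.2 ± 6.06 CPM in Vhl cells with DMSO (log2 3.79 ± 0.13, edgeR adjusted p = 7.91e-11). In control cells it had 448 ± 8.62 CPM with AZD8330 against 25.6 ± 2.43 CPM with DMSO (log2 4.12 ± 0.12, edgeR adjusted p = 1.70e-11). Astrocyte markers also moved with the drug: 9 of 10 rose in each genotype, and their sum was 3156 to 3271 CPM in Vhl cells with AZD8330 against 2178 to 2225 CPM with DMSO, and 3388 to 3520 CPM in control cells with AZD8330 against 1930 to 2010 CPM with DMSO. Between genotypes, 2 of 10 astrocyte markers rose and 4 fell with DMSO, where 13.8% of all tested genes rose and 18.5% fell. The part of the astrocyte markers in the Sox9 values was not tested.

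SOX9-dependent genes of cartilage and testis were mostly too low to test: 5 of 13 passed the filter, and Col2a1, the defining cartilage collagen gene, did not. Col9a3, a type IX collagen gene, fell in Vhl cells while Sox9 rose. It had 21.3, 21.5 and 23.5 CPM in Vhl cells against 45.4, 43 and 46.8 CPM in control cells with DMSO (log2 -1.03 ± 0.07, edgeR adjusted p = 1.85e-07). With AZD8330 it had 17.8, 16 and 16.5 CPM in Vhl cells against 49.4, 49.9 and 52.1 CPM in control cells (log2 -1.59 ± 0.07, edgeR adjusted p = 2.59e-09). The groups did not overlap in either state. Acan, the aggrecan gene, fell in Vhl cells with AZD8330 (log2 -1.13 ± 0.26, edgeR adjusted p = 0.00536) and stood at 0.03 ± 0.27 with DMSO, and the difference between these changes did not pass (edgeR adjusted p = 0.0647). AZD8330 against DMSO raised 1 of the 5 in Vhl cells, Col9a2 (log2 1.35, edgeR adjusted p = 0.000261), with Col9a3 falling, and raised 4 in control cells, Acan, Col9a2, Col9a3 and Col11a2. Over all tested genes 51.4% passed in Vhl cells and 60.8% in control cells. Col9a1 passed in none of these.

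Of 14 genes that depend on SoxE factors in neural crest, Schwann cells and melanocytes, 6 were tested. With DMSO 1 of the 6 passed between genotypes, where 32.3% of all tested genes did: Pou3f1, a POU factor gene of premyelinating Schwann cells (88.3 ± 4.12 CPM in Vhl cells against 148 ± 6 CPM in control cells, log2 -0.74 ± 0.08, edgeR adjusted p = 1.77e-05). With AZD8330, Pmp22 and Ret rose and Pou3f1 and Ednrb fell in Vhl cells against control cells (30.0% of all tested genes passed). Ret, a receptor tyrosine kinase gene, differed by log2 1.19 (edgeR adjusted p = 0.00643). Ednrb, an endothelin receptor gene, rose with AZD8330, to 601 ± 28.1 CPM in Vhl cells with AZD8330 against 104 ± 14.5 CPM with DMSO, and to 782 ± 5.53 CPM in control cells with AZD8330 against 101 ± 13.1 CPM with DMSO. Pmp22, a peripheral myelin gene, moved the other way, with 41.2 ± 2.02 CPM with AZD8330 against 83.2 ± 1.6 CPM with DMSO in Vhl cells and 24.4 ± 3.43 against 80.7 ± 1.54 CPM in control cells. Each of these Ednrb and Pmp22 changes passed (edgeR adjusted p at most 1.41e-07). Dhh, a hedgehog ligand gene of Schwann cells, fell with AZD8330 in control cells (log2 -1.34, edgeR adjusted p = 0.0142). Untreated, 0 of 7 passed with all libraries and 1 of 6 without the A libraries, Ednrb (log2 -1.94, edgeR adjusted p = 0.0126). Leaving the A libraries out was a choice made after seeing the data, so the Ednrb value is a description. In that fit 4.47% of all tested genes passed. Foxd3, Dct, Tyr and Tyrp1, which mark neural crest and melanocytes, did not reach the filter in either table.

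All 23 genes of SoxE partners and regulators were tested. With DMSO, 9 rose and 3 fell in Vhl cells (13 and 2 with total-count scaling), where 32.3% of all tested genes passed. With AZD8330, 7 rose and 5 fell, where 30.0% of all tested genes passed. Olig2, the lineage factor that acts upstream of and with Sox10, rose in Vhl cells in both states, unlike Sox10: 1495 ± 14.4 CPM in Vhl cells against 1325 ± 43.7 CPM in control cells with DMSO (log2 0.17, edgeR adjusted p = 0.000478) and 1309 ± 30 against 1134 ± 9.17 CPM with AZD8330 (log2 0.21, edgeR adjusted p = 0.000117). Hes5, a Notch effector gene, had 47.7, 45.9 and 49.9 CPM in Vhl cells against 14.9, 13 and 15.6 CPM in control cells with DMSO (log2 1.73 ± 0.08, edgeR adjusted p = 4.63e-09). With AZD8330 the Hes5 difference was smaller (log2 0.38 ± 0.06), and the difference of drug effects passed (log2 -1.34 ± 0.10, edgeR adjusted p = 3.72e-06). Untreated, Hes5 had 90.9, 151 and 126 CPM in Vhl cells against 78.2, 202 and 213 CPM in control cells, lower in Vhl B and C than in control B and C (log2 -0.42 ± 0.39 over all libraries, edgeR adjusted p = 0.803). The SoxD gene Sox6 and the SoxC gene Sox4, whose products act beside or against SoxE proteins, were higher in Vhl cells with DMSO by log2 0.42 ± 0.04 (edgeR adjusted p = 1.26e-05) and 0.45 ± 0.05 (edgeR adjusted p = 1.38e-05). With AZD8330, Sox6 was higher in Vhl cells by log2 0.17 ± 0.04 (edgeR adjusted p = 0.0084). Sox4 was level with AZD8330 (edgeR adjusted p = 0.989), its difference of drug effects passed (log2 -0.45 ± 0.07, edgeR adjusted p = 0.000894), and untreated it stood at log2 -0.35 ± 0.30 (edgeR adjusted p = 0.789). AZD8330 against DMSO raised 5 and lowered 9 of the 23 in Vhl cells, and raised 8 and lowered 8 in control cells. These counts are near the background of 51.4% of all tested genes in Vhl cells and 60.8% in control cells. The SoxC gene Sox11 fell in both (log2 -0.50 in Vhl cells and -0.60 in control cells).

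Dlx3, a homeobox factor gene, and Ascl2, which encodes a basic helix-loop-helix protein, were present in Vhl cells and near 0 in control cells. Ascl2 had 7.88, 8.24 and 8.83 CPM in Vhl cells against 0.381, 0.0669 and 0.214 CPM in control cells with DMSO, and 4.97, 7.26 and 5.82 against 0, 0.13 and 0.502 CPM with AZD8330. Dlx3 had 17.9, 16.6 and 16.1 CPM in Vhl cells against 0, 0.134 and 0.0714 CPM in control cells with DMSO. Both passed in the drug table (edgeR adjusted p = 2.81e-05 for Ascl2 and 3.27e-08 for Dlx3 with DMSO). They reached the filter only through the Vhl groups and were listed with earlier results of these data known, so these calls are descriptions. With AZD8330 neither changed past the threshold in Vhl cells. In control cells both were too near 0 for a change with AZD8330 to be judged. Untreated, Ascl2 had 2.22 CPM in Vhl A, 7.61 in Vhl B and 10.6 in Vhl C, and Dlx3 had 4.16, 19.8 and 28 CPM in the same libraries, so the Vhl library with the most Sox10, A, had the least of both. In untreated control cells neither exceeded 0.13 CPM. With 3 Vhl libraries that order is a description, and it was not particular to Ascl2 and Dlx3. Bnip3 (159.7 CPM in Vhl A against 512 and 516 CPM in Vhl B and C) and Vegfa (38.7 against 407 and 642 CPM) were also lowest in Vhl A.

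Likeness to each SoxE gene was measured by the root-mean-square difference of log2(CPM + 1), each gene centred on its own mean, over the 12 drug libraries among 10071 genes that averaged 5 CPM or more. The libraries share 4 conditions, so likeness here mainly reflects those group means. Erbb3 was the gene most like Sox10 (difference 0.20, Pearson's r 0.98), followed by Kitl, the KIT ligand gene (0.30), Bdh1 (0.31), Sod3 (0.36) and Srl (0.36). Among all ranked genes, Sox8 stood at 1522 and Sox9 at 8773 in likeness to Sox10. Bcar1 was most like Sox9 (0.06), followed by Foxo3, Rab6b, Sp9 and Adcy5. Marcksl1 and Kidins220 (0.04 each), Zfand6, Cd81 and Lrrc4c were most like Sox8.

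Over the 6 untreated libraries the lists were different, and there the A libraries stood apart from the rest. Capn6 (0.25), Luzp2 (0.36), Afap1l2 (0.37), Dmrta1 (0.43) and Tspan4 (0.48) were most like Sox10. None of these stood among the 5 most like Sox10 in the drug table. Fcho2, Poldip3 and Sema6a (0.19 each), Cblb and Dusp7 were most like Sox9, and Npas3 (0.03), Palld, Foxk1, Tjp1 and Znrf3 most like Sox8. In the drug table, Luzp2 still differed between genotypes in the direction of Sox10, by log2 -2.49 ± 0.15 with DMSO and -2.45 ± 0.12 with AZD8330 (edgeR adjusted p = 8.14e-08 and 1.20e-08), and so did Capn6 (log2 -1.90 ± 0.33 and -2.88 ± 0.30, edgeR adjusted p = 0.000806 and 1.16e-05). Sox9 and Sox10 ran against each other over the 6 untreated libraries (Pearson's r -0.98, as a description), where the A libraries stood apart. Over the 12 drug libraries r was -0.35. That value pools opposite differences between genotypes with a rise of both genes with AZD8330. Sox8 and Sox9 ran together in both (r 0.89 untreated and 0.65 in the drug table).

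Other measures also differed between genotypes in the drug libraries. The share of counts on mitochondrially encoded genes was 2.56% to 3.29% in the Vhl drug libraries against 4.51% to 5.25% in the control drug libraries. Untreated it did not separate the genotypes, with 2.36% to 6.22% in Vhl cells against 4.93% to 4.97% in control cells. Neuron markers summed to 372 to 385 CPM in Vhl cells against 178 to 189 CPM in control cells with DMSO. Most of it was Dcx (267, 262 and 278 CPM in Vhl cells against 116, 113 and 109 CPM in control cells). Of 6 tested neuron markers 2 rose with DMSO, where 13.8% of all tested genes rose. Untreated, the neuron sums overlapped (369 to 581 CPM in Vhl cells against 475 to 491 CPM in control cells). Schwann and neural crest markers summed to 87.6 to 92 CPM in Vhl cells against 95.1 to 103 CPM in control cells with DMSO, most of it Pmp22. Chondrocyte, melanocyte, microglia, endothelial and pluripotency markers summed to at most 52.6, 11.3, 2.03, 17.7 and 23.7 CPM in any library. The endothelial sum was 16.5 to 17.7 CPM in Vhl cells against 5.92 to 8.5 CPM in control cells with DMSO. With AZD8330 it was 10.5 to 13 CPM against 6.02 to 7.37 CPM, and untreated the endothelial sums overlapped. With DMSO, most of the endothelial sum in Vhl cells was Flt1 and Kdr. Flt1 had 8.6, 8.59 and 8.45 CPM in Vhl cells against 1.21, 0.334 and 0.642 CPM in control cells. Kdr had 5.97, 6.27 and 7.24 CPM against 3.74, 3.54 and 2.57 CPM. Tek went the other way, with 0.717, 0.749 and 1.06 CPM against 2.16, 2.27 and 1.78 CPM. Pecam1, Cdh5 and Cldn5 stayed under 1 CPM in these libraries. The part of these measures in the SoxE values was not tested.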

How the data were processed

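The authors deposited 2 tables, for 6 untreated and 12 drug libraries. The submitters' processing notes name Salmon 0.14.1 and mm10; the sources used here give neither the annotation nor the step from transcripts to genes. Although the authors' file names say TPM, the deposited values are estimated counts, since column totals differ between libraries. Of the values above 0, 57.7% (untreated) and 58.8% (drug) are whole within 0.001. They were rounded to whole numbers. The tables were fitted separately in R 4.3.3 with the quasi-likelihood test of edgeR 4.0.16: TMM scaling, a minimum mean of 1 CPM, group as the only term, and all 4 drug groups in a single fit. P-values were adjusted by Benjamini-Hochberg over all tested genes per comparison, with 0.05 as the threshold; SE is the size of the log2 change over the square root of F. CPM are relative to TMM-scaled totals. Levels per kb use the exon union in GENCODE M21. Alternatives were RLE and total-count scaling, other filters, DESeq2 1.42.0, limma 3.58.1 on log2(CPM + 1) and log2(CPM + 0.1), a replicate block, fewer groups, and libraries left out. The fit was tested on simulated data. Rows that hold a date in place of a symbol (26 per table) stayed in the fits. The authors' 2 mean columns of the untreated libraries entered no comparison. Figures were drawn with matplotlib 3.10.9.

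The SoxE genes, the 6 gene lists and the 10 marker lists were chosen with earlier results of these data known, and the lists draw on textbook roles. Per list, up to 4 tested members with the smallest p in the DMSO genotype comparison and in the control drug comparison were taken for naming, and up to 3 in the Vhl drug comparison. Olig2, Ascl2, Dlx3 and Vhl were always named, and other members of a list were named after their values were seen. Results for 2 list members are not reported here, though counts, medians and sums over the lists include them.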

Additional observations from a re-analysis of the deposited data

Results flagged for a closer look

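The effect of AZD8330 on Sox9 differed slightly between genotypes, by a call that some alternatives removed. The drug effect in Vhl cells minus that in control cells was -0.16 on the log2 scale (± 0.04 SE, edgeR adjusted p = 0.0349), and Sox9 rose in every AZD8330 library relative to every DMSO library of its genotype. The difference did not pass without the filter on low counts (log2 -0.13, adjusted p = 0.258). The call was also lost in 7 of 12 fits with 1 library left out (edgeR adjusted p up to 0.0811). Sox8 had a similar difference (log2 -0.14 ± 0.04, edgeR adjusted p = 0.0658), which passed with RLE and with total-count scaling. No group reached the 4 libraries that a check for single outlying libraries needs.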

How the results depend on the processing

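The same sign and side of the threshold as reported was found in 322 of the 347 values of single SoxE genes under an alternative. Sox9 and Sox10 kept both in the drug table for every comparison of 2 groups. In the untreated table, Sox8 reversed to log2 -0.05 without Vhl C, and Sox10 to 0.44 without control A. Without both A libraries, which were singled out by their Sox10, Sox10 stood at -2.49, as a description and not a test. The share of Sox10 (Vhl minus control, in percentage points) reversed to 4.33 without control A. Leaving out single libraries gave ranges of -0.05 to 0.51 for Sox8, -3.90 to 0.44 for Sox10 and -16.8 to 4.33 for the share. The untreated count of called genes, 2, became 143 with no filter, 355 with DESeq2, 4 with limma at either pseudocount, 0 with a replicate block (edgeR; 1041 at an unadjusted p under 0.05) and 606 without the A libraries, and ran from 0 to 439 with 1 library left out (439 without Vhl A, 3 without Vhl C, 0 without any other, with 688 to 1159 at an unadjusted p under 0.05). Without the A libraries, a choice made after seeing the data, 1 of 12 tested genes of the oligodendrocyte-lineage list was called. So were 1 of 6 of the neural crest list, 2 of 7 of the SOX9 glial list and 2 of 23 partners and regulators. With all libraries, 0 were called in each list. Over all tested genes, 4.47% passed without the A libraries and 0.0147% with all libraries. The 1 SoxE gene called without them was Sox10, whose values singled them out, so that call is not a test.

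Sox8 with DMSO passed with total-count scaling (0.14), a minimum of 5 CPM (0.13), without the A libraries (0.14) and with only the 2 groups (0.11). Sox8 with AZD8330 passed with RLE scaling (-0.11), 5 CPM (-0.09) and DESeq2 (-0.10), and ran from -0.12 to -0.04 with 1 library left out (-0.12 without control B, adjusted p = 0.0313). The Sox8 difference of drug effects passed with RLE (-0.17), total counts (-0.20), 5 CPM (-0.22) and DESeq2 (-0.17), and ran from -0.23 to -0.11. That of Sox9 was lost with no filter (-0.13) and ran from -0.26 to -0.13. The DMSO count of called genes, 4343, became 2811 without the A libraries, and the count for the difference of drug effects, 1718, became 744. Apart from the fewer libraries or genes these settings hold, the cause was not tested.

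Over all tested genes, deviations from the group means correlated between -0.081 and 0.0528 for libraries with the same letter, under the 0.1 used to call them paired, although Sox8, Sox9 and Sox10 deviated the same way in both untreated A libraries. The replicate block took the untreated count to 0 and changed no call of a SoxE gene. Depth limits Sox10 most, with as few as 205 counts in a Vhl library with DMSO.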

Other observations

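The untreated table holds a column of means that the authors labelled for the Vhl group. In the authors' deposited table this column equals the mean of Vhl A, control B and control C in every row within 0.01, and the mean of Vhl A, B and C in 51.7% of rows. For Sox10 the authors' deposited table gives 3331.0 estimated counts in that column, where the mean of Vhl A, B and C is 2516.0. For Sox9 it gives 7168.3 against 10927.3, and for Sox8 11480.4 against 14098.6. The column of control means equals the mean of control A, B and C in every row.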
